A study of Homo sapiens with 2 samples.

Results

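Long noncoding RNAs (lncRNAs) are transcripts that are not translated into protein, and their start sites, like those of protein-coding genes, lie in promoters that transcription factors can bind. Among the 49245 significant interactions that a TCF3::HLF-HiChIP of leukemia cells had listed, 3403 (6.91%) joined a promoter of an lncRNA to another place on its chromosome, with no protein-coding start site at either end. An interaction entered this set when neither of its 5-kb bins held a start site of any transcript of a protein-coding gene and at least 1 bin held the start of a transcript of a gene of type lncRNA, in GENCODE release 44 on hg38. A protein-coding start lay in a bin of 11811 interactions (24.0%), and 34031 (69.1%) held neither kind of start.

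HiChIP enriches chromatin with an antibody and then sequences DNA pieces that were ligated because they lay close to each other in the nucleus, so each interaction reports contact at chromatin that the antibody pulled down. TCF3::HLF is a fusion transcription factor made by the t(17;19) translocation of B cell acute lymphoblastic leukemia. It carries the activation domains of TCF3 and the leucine zipper DNA-binding domain of HLF, which recognizes a nearly palindromic sequence. LncRNA promoters are of interest here because many lncRNA genes arise at enhancers, and because antisense, divergent and microRNA host transcripts sit beside genes whose control is studied.

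The series held 1 condition. The cells were HAL-01, a human B cell leukemia line with t(17;19), carrying Cas9 and GFP, in which the wild-type TCF3 allele had been knocked out, so that anti-TCF3 antibodies bound the fusion protein. The knockout line was expanded from a single clone, and a list of interactions cannot check the knockout. The authors merged 2 biological replicates before interactions were listed, so no value below has a replicate error, no group was compared with another and no difference was tested. All intervals are 95% intervals that cover counting error alone. Interactions that share a bin, and bins that share a gene, are not independent of each other.

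The HLF motif was searched as exact TTACGTAA or TTATGTAA on both strands (the latter reads TTACATAA on the other strand). Of the 8 lncRNA-start bins with the most interactions, 7 held this motif. The sequences around it are printed here for the 6 of these in which it lay nearest to an lncRNA start, ordered by that distance, and for the host gene of miR-181a, with 60 bases of hg38 each and the motif in capitals.
AADACP1 (chr3:151770339-151770398, plus strand): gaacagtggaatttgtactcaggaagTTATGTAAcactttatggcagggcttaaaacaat
NFIA-AS1 (chr1:61253536-61253595, plus strand): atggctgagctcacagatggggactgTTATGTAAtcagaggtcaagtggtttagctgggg
LINC02093 (chr17:13306806-13306865, plus strand): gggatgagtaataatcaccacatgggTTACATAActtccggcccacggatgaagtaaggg
ENSG00000289066 (chr15:91412343-91412402, plus strand): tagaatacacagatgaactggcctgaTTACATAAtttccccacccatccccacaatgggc
ENSG00000250280 (chr12:65281353-65281412, plus strand): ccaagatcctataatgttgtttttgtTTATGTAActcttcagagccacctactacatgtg
SMIM2-IT1 (chr13:44157872-44157931, plus strand): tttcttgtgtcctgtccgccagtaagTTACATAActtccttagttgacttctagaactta
MIR181A2HG (chr9:124658677-124658736, plus strand): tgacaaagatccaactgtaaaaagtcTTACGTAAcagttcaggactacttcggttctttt

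In AADACP1, NFIA-AS1 and LINC02093 the motif lay 27, 56 and 65 bases upstream of the nearest annotated start, and in ENSG00000250280 it lay 274 bases upstream. In ENSG00000289066, MIR181A2HG and SMIM2-IT1 it lay 244, 276 and 320 bases downstream, inside the transcribed region. MIR181A2HG was the only one of these 7 with TTACGTAA, and the others had TTATGTAA on one strand or the other. MIAT and MEF2C-AS1 are shown for contrast, since their motif was 1953 and 2146 bases from the nearest lncRNA start although the same bin took part in many interactions.
MIAT (chr22:26649151-26649210, plus strand): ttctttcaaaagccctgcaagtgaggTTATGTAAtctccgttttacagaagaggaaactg
MEF2C-AS1 (chr5:88940911-88940970, plus strand): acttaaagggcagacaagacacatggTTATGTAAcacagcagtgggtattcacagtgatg

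RefSeq promoters, from 250 bases before to 50 bases after a gene's start, matched 395 of the 1726 lncRNA genes with an interaction. The motif stood in 8 of those 395 promoters (2.03%, Wilson interval 1.03 to 3.95), against 1.60% of all 3681 lncRNA promoters and 1.05% of all 27305 promoters in the table. The match was by gene, so a RefSeq promoter could lie outside the interacting bins of its gene, as that of CYP1B1-AS1 did. The 2 of the 8 whose genes had the most interactions were NFIA-AS1 with 28 and LINC01813 with 13, and their 300-base promoters are printed along the transcribed strand with the motif in capitals. The other 6 genes had 1 to 5 interactions each.
NFIA-AS1 (chr1:61253469-61253768, minus strand): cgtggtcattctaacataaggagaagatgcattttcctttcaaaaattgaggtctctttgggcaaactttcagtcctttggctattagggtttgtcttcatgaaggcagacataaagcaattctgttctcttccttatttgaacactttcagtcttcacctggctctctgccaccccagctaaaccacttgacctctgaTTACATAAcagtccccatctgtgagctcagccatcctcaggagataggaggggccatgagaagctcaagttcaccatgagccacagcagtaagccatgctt
LINC01813 (chr2:56090333-56090632, minus strand): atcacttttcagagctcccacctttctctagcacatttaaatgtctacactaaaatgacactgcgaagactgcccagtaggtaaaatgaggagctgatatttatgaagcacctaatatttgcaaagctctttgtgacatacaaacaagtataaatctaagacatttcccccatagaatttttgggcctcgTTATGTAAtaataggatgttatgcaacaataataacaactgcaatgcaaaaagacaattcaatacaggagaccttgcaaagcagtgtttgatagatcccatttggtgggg

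As a class, the lncRNA promoter interactions spanned distances like those of the rest of the list. Their bins lay a median of 255 kb apart (interval 240 to 270), against 240 kb where a protein-coding start was present and 260 kb where no start was. Distances ran from 50 kb, the shortest the list admits, to 2995 kb, and 486 interactions (14.3%) were longer than 1 Mb. The contact count, the read pairs that link one bin to the other, without normalization, had a median of 24 in all 3 classes. In the lncRNA class it ran from 11 to 290 and added up to 89077, which is the depth behind these values. A count of 24 has an exact Poisson interval of 15.4 to 35.7, and a count of 11 one of 5.49 to 19.7, so single counts near the median cannot be ranked.

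At 50 to under 100 kb the 667 lncRNA promoter interactions had a median contact count of 27, with 26 in each of the other classes. Beyond 1 Mb the 486 long ones had a median of 22, with 21 at protein-coding starts and 22 where no start was present. A contact count of 50 or more was reached by 98 of the 3403 (2.88%, 2.37 to 3.50), and 100 or more by 15. FitHiChIP joined neighboring significant bin pairs into groups, and 313 of the interactions (9.20%, 8.27 to 10.2) came from a group of more than 1 pair. This share was 8.37% (7.89 to 8.89) at protein-coding starts and 7.30% (7.03 to 7.58) without a start.

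**Figure D1:**
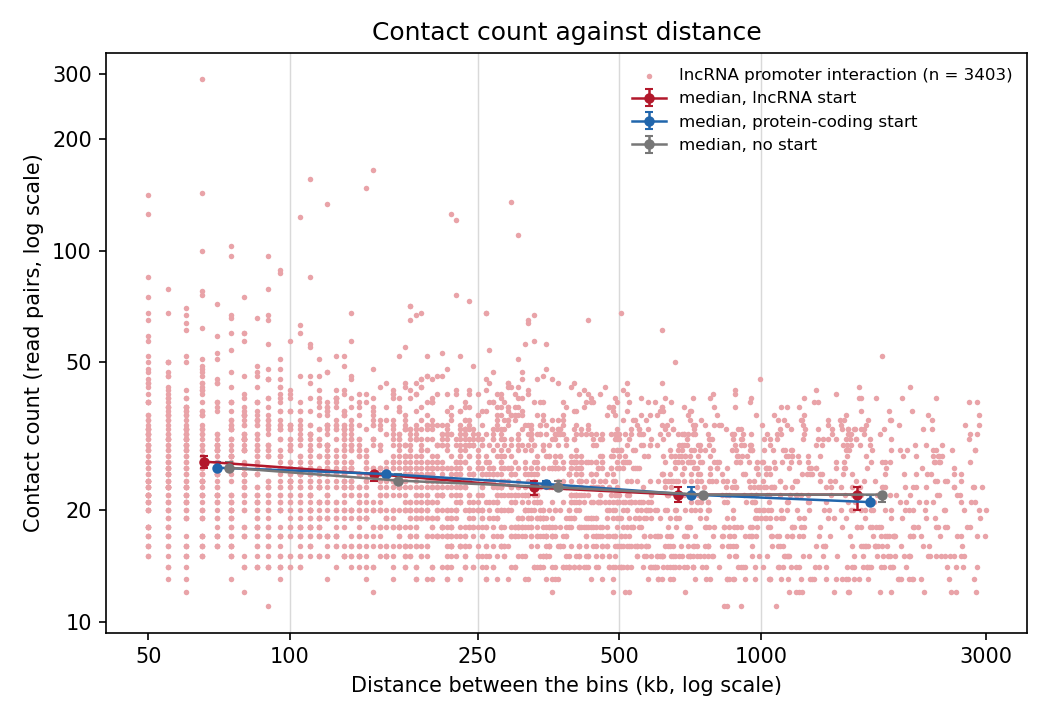
Contact count (read pairs, log scale) against the distance between the bins (kb, log scale) for the 3403 lncRNA promoter interactions (light points), with the median and its 95% interval in 5 ranges of distance, divided by gray lines, for interactions with an lncRNA start, a protein-coding start or no start. The 3 medians fall together from 27, 26 and 26 at 50 to under 100 kb to 22, 21 and 22 beyond 1 Mb, and 1 point at 290 stands above all others.

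The lncRNA starts were present at anchors, the bins that take part in an interaction, somewhat more often than across the genome. Of 53535 anchor bins, 2007 (3.75%, 3.59 to 3.91) held an lncRNA start and no protein-coding start. The same held for 2.99% of all 606219 5-kb bins and for 3.30% (3.18 to 3.43) of the bins 25 kb away from an anchor. Read the other way, 11.1% of the 18135 lncRNA-start bins were anchors, against 12.8% of the protein-coding-start bins and 8.83% of all bins. Of the 2007 bins, 1777 took part in at least 1 lncRNA promoter interaction, and the rest reached protein-coding starts alone. All interactions of lncRNA-start bins together numbered 3932, of which 529 (13.5%) had a protein-coding start at the other end.

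At the level of genes, 1726 of the 14348 lncRNA genes with a start outside protein-coding-start bins had an interaction (12.0%). A single interaction was listed for 1226 of the 1726, and 61 had 10 or more, up to 36 for LINC02093. By the kind of name, divergent transcripts, which start beside and opposite to a protein-coding gene, had the highest share, 32 of 150 (21.3%, 15.5 to 28.6). MicroRNA host genes followed with 13 of 69 (18.8%, 11.4 to 29.6), then antisense transcripts with 155 of 1014 (15.3%, 13.2 to 17.6) and LINC genes with 316 of 2191 (14.4%, 13.0 to 16.0). Genes with an Ensembl number alone were the most numerous and had 1105 of 10138 (10.9%, 10.3 to 11.5). The intervals of these first 4 groups overlapped, and those of the divergent, antisense and LINC genes lay above that of the genes with a number alone. The host genes had a median of 2 start bins against 1 for all lncRNA genes, and per start bin their share was 14 of 212 (6.60%, 3.97 to 10.8), against 9.80% (9.38 to 10.2) of all lncRNA-start bins. Shares per start bin were not computed for the other kinds of name. Of the 588 divergent genes in the annotation, only 150 had a start outside protein-coding-start bins and could be counted. Median contact counts ran from 22.5 for divergent transcripts to 29 for microRNA hosts.

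The nearest protein-coding start was a median of 32.6 kb (30.3 to 36.1) from the lncRNA bin and 27.8 kb (25.4 to 29.8) from the other bin, over the 3279 interactions with an lncRNA start in 1 bin. Within 50 kb of such a start lay the lncRNA bin in 58.6% of the interactions and the other bin in 62.4%. Within 10 kb lay 27.7% and 28.6%, and these near neighbors are the ones that a wider promoter definition would move to the protein-coding class. The study itself defined putative promoter anchors by a window of 10 kb on either side of a start. Its promoter class is therefore wider than the one used here. The lncRNA bin overlapped the body of a protein-coding gene in 30.9% of the interactions. The other bin did so in 47.3%, overlapped an lncRNA gene alone in 19.2%, and lay outside both in 33.6%. It fell in the same lncRNA gene in 4.76%. The other bin lay on the side towards which the lncRNA is transcribed in 52.0% (50.2 to 53.7) of the 3112 interactions in which a direction could be given, so the contacts leaned little to either side. No protein-coding start stood between the bins in 25.3% (23.9 to 26.9), near the 23.4% of interactions without a start and above the 6.86% of those with a protein-coding start in 1 bin.

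The HLF motif had nearly equal shares at the lncRNA end and at the other end. Over the 3279 interactions it was present in the lncRNA bin of 42.4% (40.7 to 44.1), in the other bin of 42.0% (40.3 to 43.7), in both of 16.7% and in neither of 32.4%. At protein-coding starts the corresponding shares were 40.2% for the start bin and 39.2% for the other bin, and where no start was present they were 42.2% and 42.2%. When each bin was counted once, the motif was in 30.2% of the 1678 lncRNA bins and in 40.2% of the 3026 other bins, against 31.5% of all anchor bins.

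These shares hid a difference between bins with few and with many interactions. Among lncRNA-start bins with 1 interaction, 25.8% of 1512 (23.7 to 28.1) held the motif, and the 16128 lncRNA-start bins with none held it in 26.1%. The share was 27.5% of 280 bins with 2 to 4 interactions, 50.3% of 149 with 5 to 9 (42.4 to 58.3) and 66.7% of 66 with 10 or more (54.7 to 76.8). Bins 25 kb away from those 66 held it in 30.1% (22.1 to 39.5). The pattern was not particular to lncRNA starts, since bins with 10 or more interactions held the motif in 61.5% of cases at protein-coding starts and in 67.6% without a start. Mean GC content of the lncRNA-start bins was 44.2% with 1 interaction and 43.7% with 10 or more.

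**Figure D2:**
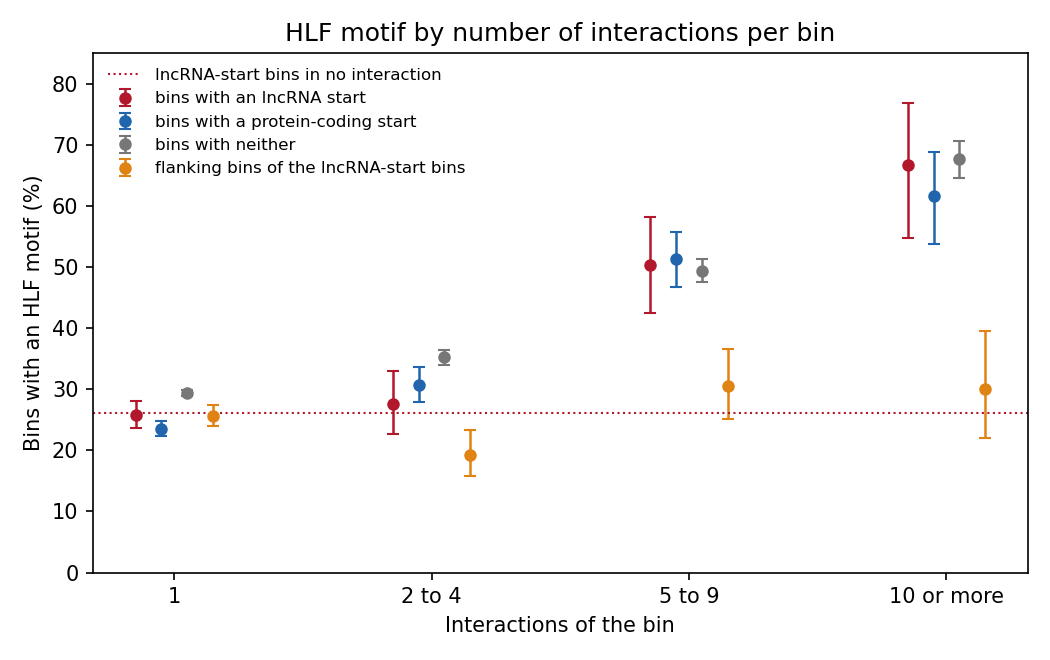
Share of bins with an HLF motif (%) by the number of interactions of the bin, with Wilson 95% intervals, for bins with an lncRNA start, with a protein-coding start, with neither, and for bins 25 kb away from the lncRNA-start bins. The lncRNA-start bins rise from 25.8% to 66.7% while their flanking bins stay between 19.2% and 30.5%; the dotted line marks lncRNA-start bins in no interaction, at 26.1%.

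Where 1 end was in 10 or more interactions, the motif was more frequent at that end. In 739 of the 3279 interactions the lncRNA bin took part in 10 or more interactions. Counted per interaction, the motif was there in the lncRNA bin of 69.4% and in the other bin of 31.1%. In 500 interactions the other bin was the one in 10 or more, and the shares were reversed, 27.8% in the lncRNA bin and 72.8% in the other. Both ends were in 10 or more in 17 interactions, and neither was in 2057 (62.7%).

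A motif was held by 44 of the 66 lncRNA bins in 10 or more interactions. The distance from the motif to the nearest lncRNA start had a median of 798 bases, against 1150 in all 535 lncRNA bins with an interaction and a motif, and 1330 in the 4208 without any interaction. It was within 500 bases in 18 of 44 (40.9%, 27.7 to 55.6), against 26.9% (23.3 to 30.8) and 22.4% (21.1 to 23.7), and the first of these intervals overlapped the second. In 17 of the 44 it was more than 1000 bases away. Of these 18, 10 had it upstream of the start and 8 downstream. Within 100 bases were 6 bins, 5 of them with the motif upstream. In windows from 250 bases before to 50 after each annotated start, the motif was found at 11 of the 147 starts in bins with 10 or more interactions (7.48%, 4.23 to 12.9), at 1.82% of the 3783 starts in all bins with an interaction and at 1.42% of those in bins without one. Several of the 147 starts, and of the 11 with the motif, belong to 1 gene and lie a few bases apart, as do the 4 starts in the AADACP1 bin. The interval takes them as independent and is therefore too narrow.

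LINC02093, an intergenic lncRNA of chromosome 17, had the most interactions of any lncRNA gene. Its start bin, 13305001-13310000, joined 36 other bins in the set and 2 more with a protein-coding start, and its 38 interactions ranked it 10th, with ties, among all 53535 anchor bins. Contact counts ran from 16 to 97 with a median of 31, and the distances from 55 kb to 2865 kb with a median of 630 kb. The highest, 97 (78.7 to 118), joined it to a bin 90 kb away in which the motif was also found. A bin 55 kb to the other side followed with 68 and a bin 320 kb away with 65. The partners lay mostly at higher coordinates, 27 of 36, and 4 overlapped HS3ST3A1, which encodes a heparan sulfate sulfotransferase. The motif was in 9 of the 36 partner bins, and 0 of the partners took part in 10 or more interactions, so the bin was the center of a star of contacts.

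NFIA-AS1 runs antisense inside NFIA, the gene of a nuclear factor I transcription factor with a role in blood cell differentiation. Its start bin held 2 motifs and joined 28 bins, 13 of which overlapped NFIA itself. Contact counts ran from 15 to 57, the highest to an NFIA bin 80 kb away, where the merged group reached a sumCC of 183. The sumCC adds the contact counts of all pairs in the merged group. Outside NFIA, 3 partners overlapped PATJ, a cell polarity gene, and a bin 1.12 Mb away near KANK4 reached 35. The motif was in 9 of the 28 partners.

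ENSG00000289066, an lncRNA of chromosome 15 known by its number, had the interaction with the highest contact count and the smallest P value of the set. The P value is that of FitHiChIP for a contact count, given the distance and the coverage of both bins. The bin of its start, 91410001-91415000, and the bin 91345001-91350000, 65 kb away, were joined by 290 read pairs (258 to 325), for which the binomial test of FitHiChIP gave P = 4.68e-262. It was 11.2 times the median of 26 for the 989 listed interactions at 65 kb, and ranked 4th in contact count and 6th in P among all 49245. The next 4 partners by contact count, with 123, 103, 85 and 85 read pairs, also lay within 110 kb. The last of these bins held the start of another lncRNA, ENSG00000285883, inside SV2B, a gene of a synaptic vesicle protein. In all there were 23 interactions. Of these, 6 ended in the lncRNA CRAT37, whose gene also overlaps the start bin, and 3 in SLCO3A1, an organic anion transporter gene. The far partners were weaker, with 16 to 40 read pairs beyond 0.5 Mb.

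ENSG00000289389, on chromosome 2 inside the longer lncRNA LINC01934, was the leading bin without a motif. It had 20 interactions with contact counts of 19 to 89. Of its partners, 6 lay in LINC01934, 2 in ITGA4, the integrin alpha 4 gene used by lymphocytes for adhesion, 2 in UBE2E3 and 3 in PPP1R1C. The highest count, 89 (71.5 to 110), was with a LINC01934 bin 95 kb away towards ITGA4, and the ITGA4 bin 210 kb away, 3.34 kb from a start of the gene, reached 53 (39.7 to 69.3). The motif was present in 4 of its 20 partners, among them the other ITGA4 bin, with 3 motifs and 34 read pairs.

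The next bins were of the same kind. SMIM2-IT1, an intronic transcript of SMIM2 on chromosome 13, had 19 interactions, the highest with 97 read pairs to a bin 75 kb away in LINC02938 and SMIM2-AS1, while no other exceeded 41. AADACP1, a transcribed pseudogene of the arylacetamide deacetylase family, had 18, led by 143 read pairs (121 to 169) over 65 kb, and 5 of its partners lay in MED12L. LINC02745, on chromosome 11 and 700.2 kb from the nearest protein-coding start, had 18 with at most 43 read pairs, and 6 of those partners lay in its own gene. ENSG00000250280, which starts in MSRB3, had 17 with at most 39, of which 36 (25.2 to 49.8) joined it to the body of HMGA2, a chromatin protein gene, at 0.555 Mb. The ENSG00000250280 bin lay 0.516 kb from a start of MSRB3, and the SMIM2-IT1 bin 1.257 kb from a start of SMIM2. LINC00511 had 23 from 4 start bins, 16 of them from 1 bin without a motif, and counts of 13 to 65. ENSG00000205622, on chromosome 21, had 22 from 7 of its 9 start bins, with 17 to 60 read pairs at a median distance of 130 kb. Of these, 12 came from 1 bin without a motif.

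Among the other leading interactions, ENSG00000224376 on chromosome 2 was joined to a bin in ARMC9 by 165 read pairs (141 to 192), and the merged group between ARMC9 and B3GNT7, a glycosyltransferase gene, had a sumCC of 1646. The ARMC9 bin held 3 motifs and was in 32 interactions, while the lncRNA bin held none and was in 5. The lncRNA bin lay 0.71 kb from a B3GNT7 start. A contact of the lncRNA start therefore cannot be told apart from one of the B3GNT7 promoter. ENSG00000267095 and a bin 295 kb away with TTACGTAA were joined by 135 read pairs (113 to 160), 5.75 times the median at that distance. The largest sumCC, 1894, belonged to ENSG00000265121 between SEC14L1 and SEPTIN9, although its own bin pair had 32 read pairs. Its rank was 674 by contact count and 1663 by P, so the order of the interactions depended on the measure. The value 1894 was also the largest sumCC among interactions with a protein-coding start, so it was not particular to an lncRNA start.

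CCL3-AS1, antisense to the chemokine gene CCL3, had 156 read pairs (133 to 183) with a bin in CCL3L3 110 kb away. CCL3L3 is a copy of CCL3, and the 2 bins shared 619 31-mers, more than the 500 taken as near-identical. Reads from the 2 copies may be assigned to either, so this count is uncertain. The other such interactions of the set, of ENSG00000259345 and LINC02675, shared 709 and 3766 31-mers, and 2695 of the 3403 shared none.

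A pair of lncRNA starts was joined in 124 interactions (3.64%, 3.07 to 4.33), of which 7 linked start bins of the same gene. The highest between different genes was that of ENSG00000285883 and ENSG00000289066, with 85 read pairs (67.9 to 105) over 110 kb and a motif in each bin. LINC01132 and ENSG00000289377 followed with 68 (52.8 to 86.2) over 50 kb, 109.8 kb from the nearest start of IRF2BP2, again with a motif at both ends. The other 3 of the first 5 pairs joined numbered genes with 48, 46 and 45. Start bins of LINC00511 90 kb apart, one of which also holds ENSG00000263680, were joined by 65.

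MicroRNA host genes gave 25 interactions from 13 genes. MIR181A2HG, the host of miR-181a and miR-181b, had 9 of them. These microRNAs are known for their part in lymphocyte development, and they share the seed, bases 2 to 8, printed in capitals.
hsa-miR-181a-5p: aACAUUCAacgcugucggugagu
hsa-miR-181b-5p: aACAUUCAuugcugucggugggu

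The MIR181A2HG start bin, 124655001-124660000 on chromosome 9, lies in an intron of NR6A1, a nuclear receptor gene. Its counts were 50, 37, 34 and 31 for the 4 partners within NR6A1, at 55, 110, 100 and 75 kb, and the 50 had an interval of 37.1 to 65.9. Partners in DENND1A at 0.78 Mb and in SCAI at 0.44 Mb had 31 each, one in NEK6 had 30, one in PSMB7 had 24 and one in RABEPK had 20. The interval of the 50 lay above those of the 24 and the 20 and overlapped the other 6. The other locus of the same microRNAs, MIR181A1HG on chromosome 1, had 1 interaction, with 31 read pairs (21.1 to 44) to a bin in LINC02789 that was itself in 13. Both of its bins held the motif. MIR3142HG, the host of miR-146a, had 2 interactions with 31 and 26, MIR3681HG had 37 and 18, and MIR137HG had 1 with 35. The remaining hosts, MIR4300HG, MIR4432HG, MIR5689HG, MIR663AHG, MIR31HG, MIR9-1HG, MIR9-3HG and MIR99AHG, had 1 to 3 interactions with at most 30 read pairs.

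A list of 99 lncRNAs known from blood cells, leukemia, the MYC locus, nuclear structure or imprinting was chosen with earlier results of these data known. It held 86 names present in the annotation, of which 75 had a start outside protein-coding-start bins and 28 (37.3%, 27.3 to 48.7) had an interaction. These genes have more start sites than most, with a median of 2 start bins against 1 and as many as 35, and the share per start bin was 54 of 390 (13.8%, 10.8 to 17.6), against 9.80% (9.38 to 10.2) of all lncRNA-start bins. The 28 genes took part in 129 interactions, and 89 of these (69.0%, 60.6 to 76.3) had the motif in at least 1 bin, near the 67.7% of all lncRNA promoter interactions. Apart from the microRNA hosts and the genes described below, these were DLEU1, DLEU2, MEG3, TCL6, CASC15, FENDRR, DLX6-AS1, LINC00989, HOXA-AS2 and PCAT14, with 1 to 4 interactions and at most 39 read pairs.

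MIAT, a nuclear lncRNA also expressed in lymphoid malignancies, had 16 interactions from 1 bin. The first joined it to a bin in TFIP11, a splicing factor gene, 145 kb away, with 148 read pairs (125 to 174) and a sumCC of 537. A bin 240 kb away had 73 (57.2 to 91.8), and a bin in TPST2 60 kb away had 64 (49.3 to 81.7). The remaining 13 had 16 to 40, and reached as far as ZNRF3 at 2.40 Mb. The bin had 4 further interactions with protein-coding starts. The TFIP11 bin lay 0.61 kb from a TFIP11 start, and the TPST2 bin with 64 read pairs lay 0.125 kb from a TPST2 start. These contacts therefore cannot be told apart from contacts with the TFIP11 and TPST2 promoters.

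MEF2C-AS1 runs opposite to MEF2C, a transcription factor gene active in B cell progenitors. All 10 of its interactions started from 1 of its 6 start bins, 88940001-88945000, 35.7 kb from the nearest MEF2C start, and that bin held the motif. Towards MEF2C there were 2 partners, with 24 read pairs (15.4 to 35.7) to a bin 0.332 kb from a MEF2C start and 18 (10.7 to 28.4) to a bin in the MEF2C body 220 kb away. The other 8 lay on the far side, led by 43 (31.1 to 57.9) and 39 (27.7 to 53.3) at 155 and 200 kb within MEF2C-AS1, and by 33 each at 0.72 Mb and 1.42 Mb. An 11th interaction of the bin had a protein-coding start at its other end.

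LINC-PINT, a p53-induced lncRNA, had 10 interactions with at most 34 read pairs, 7 of them from a start bin without a motif. LINC00926, a B cell lncRNA, had 7 with at most 31, of which 4 reached TCF12, a gene of the same helix-loop-helix family as TCF3, with 31, 30, 25 and 17. MALAT1, an abundant nuclear lncRNA, had 4 interactions, the highest with 38 read pairs (26.9 to 52.2) to PACS1 at 0.685 Mb. Its interaction with neighboring NEAT1 had 17 (9.90 to 27.2).

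Around MYC on chromosome 8, several lncRNA bins with few interactions were joined to bins with many. CCDC26, which spans the blood enhancer cluster downstream of MYC, had 13 interactions from 9 start bins, each of which was in at most 2 interactions. In 10 of the 13, the other bin was in 10 or more. The highest joined the start bin 129545001-129550000 to the bin 129665001-129670000, also in CCDC26, with 134 read pairs (112 to 159), and the start bin itself held no motif. Its second interaction reached the MYC gene body at 1.80 Mb, 0.928 kb from a MYC start, with 52 (38.8 to 68.2), the highest count of any lncRNA promoter interaction over 1 Mb. A neighboring start bin was joined to the same MYC bin by 23 (14.6 to 34.5). The largest sumCC of CCDC26, 528, belonged to a merged group of which 1 bin pair, 90 kb apart, had 45 read pairs (32.8 to 60.2).

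PVT1, next to MYC, had 8 interactions from 7 start bins, with 13 to 32 read pairs, and all 8 had a motif in the other bin. Of these, 5 ended in a bin with 10 or more interactions. The bin 128880001-128885000 inside CCDC26, which was in 50 interactions and shared rank 3 among all anchor bins, was a partner of PVT1, CCDC26, CASC19 and PCAT1. CASC19 had 3 interactions across 1.69 to 2.48 Mb with 14 to 24 read pairs, all with partners inside CCDC26. PCAT1 had 1, with 17.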

How the data were processed

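TCF3::HLF-HiChIP of 1 condition was analysed from the interaction list. The authors trimmed reads with Trim Galore 0.6.6, merged 2 biological replicates, aligned them to hg38 with BWA, kept copies of read pairs, used MACS2 peaks and listed FitHiChIP interactions of 5-kb bins 50 kb to 3 Mb apart at a q-value under 0.01. The FitHiChIP version is not given in the sources used here. The deposited contact count and sumCC are raw counts of read pairs, so copies can raise them. The deposited p-value and q-value come from the FitHiChIP background, and the deposited fraction, the share of significant pairs in a merged group, was not analysed further. No file held replicates apart.

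All bins lay within hg38 chromosomes. Starts came from GENCODE release 44. The members and gene lists were chosen with earlier results of these data known. Named genes were the 5 first interactions each by P, contact count, sumCC and contact count relative to the median at the same distance, the 5 lncRNA genes and start bins with most interactions, the 5 highest pairs of lncRNA genes, and known lncRNAs and microRNA hosts. LINC02745, ENSG00000250280 and LINC01813, and the values of LINC-PINT, LINC00926, MALAT1, NEAT1, PVT1, CASC19 and PCAT1, were added after they were seen. Promoters and microRNAs came from RefSeq on hg38, which named 0 of the 1105 genes with an Ensembl number alone. Shares have Wilson, single counts exact Poisson and medians order-statistic 95% intervals. Near-identical bins share at least 500 31-mers on either strand. On simulated data 2000 of 2000 interactions, 100 of 100 motifs and 50 of 50 copies were recovered. Tools were matplotlib 3.10.9, samtools 1.23.1, pandas 2.3.3, pyfaidx 0.9.0.4, numpy 2.4.6, scipy 1.17.1 and Python 3.11.15.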

Additional observations from a re-analysis of the deposited data

How the results depend on the processing

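No paired analysis was possible because the replicates were merged before interactions were listed. The number of genes, 1726, stayed within a factor of 1.5 under all alternatives except merged groups alone, which left 241 genes and 313 interactions. The number of interactions, 3403, did so except there and at a q-value under 1e-05, with 2259. When bins next to a protein-coding-start bin were also taken as protein-coding, 2333 interactions and 1194 genes were left, still within that factor. The merged groups alone had a median distance of 120 kb, contact count of 33 and sumCC of 62, with 5.75% joining a pair of lncRNA bins. Their motif was in the lncRNA bin of 45.1% of interactions and in the other bin of 46.8%. Stricter limits raised the medians. Contact count and sumCC were 26 and 26 at a q-value under 0.001, 28 and 29 under 1e-05, and 28 and 28 at a contact count of at least 20, where the distance was 222.5 kb. Up to 1 Mb it was 205 kb. With basic and canonical lncRNA transcripts alone, pairs of lncRNA bins made up 3.01% and 2.24%, and canonical ones had the motif in the lncRNA bin of 44.9% of interactions. TTACGTAA alone was in the lncRNA bin of 3.75% of interactions and in the other bin of 4.45%. The motif with a purine before and a pyrimidine after it was in 21.7% and 17.9%. The excess of lncRNA starts at anchors, 0.758 percentage points over all bins, was 0.448 over flanking bins and 1.01 among bins without a protein-coding start. The first 5 genes were the same by distinct partner bins and by merged groups. The share of motifs within 500 bases of the start in bins with 10 or more interactions, 40.9%, was 48.6% with canonical transcripts and 33.6% with 5 or more interactions. Within 1000 bases it was 61.4%. These 3 settings were chosen after seeing the data. Of the 5 interactions with the smallest P, sumCC moved ENSG00000289066 to rank 8, CCL3-AS1 to 28 and ENSG00000267095 to 12. Copies of read pairs and merged replicates limit all counts, and the effect of either was not tested.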
